A study of Homo sapiens with 12 samples.

Results

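The proteasome subunits and their regulators were followed on 12 Affymetrix expression arrays as 49 genes out of the 19775 named by single-gene probe sets. They were chosen by symbol: genes beginning with PSMA, PSMC, PSMD, PSME, PSMF or PSMG, together with PSMB1 to PSMB7, PSMB10, POMP and NFE2L1. Of the 49 genes, 42 encode a proteasome part, a factor that assembles or regulates it, or its transcription factor. The other 7 share only the prefix: PSMC3IP, PSME3IP1 and the non-coding RNAs PSMA3-AS1, PSMD6-AS2, PSMD7-DT, PSMD14-DT and PSMG3-AS1. The 49 genes had 98 probe sets, and each gene was read from its brightest one, which left 28 genes with at least 1 further probe set for comparison. PSMA6 and PSME2 were named only by probe sets that name several genes, so neither was analysed here, nor were PSMC5, PSMD7 and PSMD13.

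The arrays came from 2 cell lines labelled as multiple myeloma, a cancer of plasma cells. They formed 4 groups of 3 arrays: RPMI8226 carrying the miR-16 sponge, RPMI8226 carrying the control, MMS1 carrying the miR-16 sponge and MMS1 carrying the control. A sponge is a transcript carrying many binding sites for a microRNA, which it draws away from its natural targets. Both sponges were delivered by lentivirus into the same lines, the control being a mock sponge with GFP, and transduced cells were sorted as a population and expanded. The labels also call the sponge arrays miR16 KO, knock down or siRNA. They write RPMI8226 also as RPMI or RPMI826. The stated aim was to imitate the loss of miR-16 that accompanies deletion of 13q and to find its targets. The sequence below, the same for the mature miR-16-5p of both human loci in RefSeq (GRCh38.p14), shows in capitals the seed (bases 2 to 8) that pairs with targets.
hsa-miR-16-5p: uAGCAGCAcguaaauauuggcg
The MIR16-1 copy lies at chr13:50049027-50049048 on the minus strand and the MIR16-2 copy at chr3:160404754-160404775 on the plus strand. Mature miR-16 was not analysed here.

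The proteasome degrades proteins tagged with ubiquitin. Its barrel, the 20S core, has outer rings of alpha subunits (PSMA genes), which gate the entrance, and inner rings of beta subunits (PSMB genes), of which PSMB5, PSMB6 and PSMB7 carry the cutting sites. The 19S cap recognises, unfolds and feeds in substrates through ATPases (PSMC genes) and non-ATPase subunits of its base and lid (PSMD genes). Other caps, encoded by PSME genes, open the core without ubiquitin recognition. The transcription factor NRF1, encoded by NFE2L1, raises transcription of proteasome genes when proteasome activity is short. Plasma cells and myeloma cells make much secreted protein, and myeloma is treated with inhibitors of the PSMB5 site such as bortezomib.

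Values are log2 signals, on which a difference of 1 is a doubling, and a gene is said to rise or fall where limma's adjusted p was under 0.05 over all 54613 probe sets tested. Parallel flasks are mentioned in the labels, but no array is tied to a flask, so the p-values measure only the spread between these arrays, which may be technical. The small number of arrays limits precision, with a median standard error of 0.14 for a difference between 2 groups. Replicate 1 of MMS1 with the miR-16 sponge stood apart in the array's 18S control probe sets, at a mean of 7.84 against 9.56 to 11.14 on the other 11 arrays. The lines read low on most plasma cell markers and high on most erythroid markers, and their identity was not tested. TNFRSF17 (4.46 ± 0.26), JCHAIN (4.20 ± 0.24) and CD38 (4.91 ± 0.32, SD over 12 arrays) lay near the lower bound of 4. Of 10 plasma cell markers, 4 averaged at least 6: SDC1 (8.90), XBP1 (8.51), IRF4 (6.47) and PRDM1 (6.01). Of 9 erythroid markers, 8 averaged at least 6, with the embryonic globin gene HBE1 at 14.16 and GATA1 at 9.56. The exception was AHSP, at 5.53. The summed log2 signal of the erythroid markers was 91.48 to 91.81 in RPMI8226 with the miR-16 sponge, against 88.61 to 89.47 with the control sponge, and 85.83 to 86.33 against 89.16 to 89.30 in MMS1. The adult globin gene HBB rose in both lines, by 3.16 in RPMI8226 and 2.91 in MMS1, and without it the sums were 77.78 to 78.14 against 78.09 to 78.87 in RPMI8226 and 74.19 to 74.64 against 80.30 to 80.57 in MMS1. Of the other 8 erythroid markers, HBE1 fell in RPMI8226 (-0.49). In MMS1, HBZ (-1.94), KLF1 (-1.85), ALAS2 (-2.51) and GATA1 (-0.41) fell and TAL1 (0.62) rose. For the plasma cell markers these ranges were 59.90 to 60.95 against 58.58 to 61.47 in RPMI8226, and 58.82 to 60.22 against 59.45 to 60.66 in MMS1. No plasma cell marker was called in either line alone. Averaged over both lines, SDC1 was called higher with the miR-16 sponge (0.29, adjusted p = 0.0384). The part of either marker list in the results below was not tested.

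In MMS1, the miR-16 sponge arrays had lower signals than the control arrays for 6 of the 49 genes and a higher signal for 1. The genes that fell were PSMB5, PSMB10, PSMA5, PSMD1, PSME1 and PSMG4, which belong to 6 different subcomplexes, and the gene that rose was PSMA2. These 7 genes are 14.3% of the 49, where 10.3% of all probe sets, 12.4% of all genes and 17.6% of the 12223 genes with a mean signal of at least 6 were called. The share of proteasome genes called was thus near the background. By direction, 8.08% of all genes fell and 4.34% rose. Of the genes with a mean signal of at least 6, 11.6% fell and 5.96% rose. The median change over the 49 genes was -0.08, against -0.05 over the brighter genes, and 31 of the 49 changes were negative. In bulk RNA such as this, fewer cells of a type and less RNA per cell cannot be told apart.

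Among the catalytic subunits only PSMB5, the chymotrypsin-like site, passed the test in MMS1. Its signals were 9.54, 9.56 and 9.43 on the miR-16 sponge arrays, against 10.12, 10.05 and 10.11 on the control arrays. All 3 sponge arrays lay below all 3 controls. The change was -0.58 ± 0.09 (SE), a 1.5-fold lower signal (adjusted p = 0.00115), and no single array's omission ended the call. PSMB6, the caspase-like site, read 10.52, 10.53 and 10.53 with the miR-16 sponge against 10.40, 10.40 and 10.37 with the control sponge, a difference of 0.14 that missed the threshold (adjusted p = 0.461). PSMB7, the trypsin-like site, overlapped between the groups, with 10.87, 10.70 and 10.70 against 10.85, 10.78 and 10.76 (-0.04, adjusted p = 0.853). The structural beta subunits PSMB1, PSMB2, PSMB3 and PSMB4 differed by -0.13 to 0.00, and none passed.

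PSMB10 encodes the inducible subunit that takes the place of PSMB7 in the immunoproteasome, a form of the core made in immune cells and after interferon. Its signals were nearer the lower bound of 4, at 6.16, 6.49 and 6.49 on the miR-16 sponge arrays of MMS1, against 7.19, 6.73 and 7.01 on the control arrays. The groups did not overlap, and the change was -0.60 ± 0.16 (adjusted p = 0.0326). The call was less secure than that of PSMB5: it was lost on leaving out any of 5 arrays, namely each miR-16 sponge array of MMS1 and its control replicates 1 and 3 (adjusted p = 0.051 to 0.137). It was also lost after quantile normalization (0.0551) and in a fit of the MMS1 arrays alone (0.0514).

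The alpha ring held both directions. PSMA2 read 11.57, 11.20 and 11.38 with the miR-16 sponge against 10.83, 10.76 and 10.78 with the control sponge in MMS1, all above the controls, a rise of 0.59 ± 0.11 (adjusted p = 0.00335). Its second probe set, with a mean signal of 6.70, differed by 0.14 and was not called (adjusted p = 0.6). PSMA5 read 10.27, 10.24 and 10.06 against 10.57, 10.56 and 10.58, all below the controls, a fall of 0.38 on the log2 scale (adjusted p = 0.0188). This call was lost without MMS1 control replicate 1, 2 or 3 or miR-16 sponge replicate 3 (0.0525 to 0.0693) and in a fit of the MMS1 arrays alone (0.0868). The other PSMA5 probe set, with a mean signal of 5.08, differed by 0.28 in the opposite direction without passing, and the mean over both was -0.05 (0.885). Of the ring's other genes, PSMA8, the alpha subunit of germ cell proteasomes, came nearest, at -0.31 (adjusted p = 0.0837).

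In the 19S cap, PSMD1, a scaffold subunit of the base, was the only one of 14 genes that passed in MMS1. Its signals were 9.57, 9.55 and 9.33 with the miR-16 sponge, against 10.16, 10.04 and 10.09 with the control sponge. The change was -0.61 ± 0.10 (adjusted p = 0.00177), with no overlap, and its second probe set, at -0.60, was also called. The 5 ATPase genes measured differed by -0.12 to 0.23 and none was called. In the lid, PSMD14, the deubiquitinase that cuts ubiquitin from substrates, read 10.29, 10.14 and 10.03 against 9.88, 9.95 and 9.93, a difference of 0.23 that missed the threshold (adjusted p = 0.158).

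Among the activators, PSME1, which encodes the alpha subunit of the interferon-inducible cap PA28, had the smallest adjusted p of the 49 genes in MMS1. Its signals were 8.88, 8.75 and 8.90 with the miR-16 sponge, against 9.58, 9.56 and 9.55 with the control sponge. The sponge arrays lay wholly below, by 0.72 ± 0.09 or 1.65-fold (adjusted p = 0.000166), and the call held on leaving out any 1 array. PSME3, which encodes the nuclear PA28 gamma, differed by -0.29 (adjusted p = 0.0621), and PSME4, which encodes the PA200 cap, by -0.08 (0.689). The inhibitor-like regulator PI31, encoded by PSMF1, read 8.65, 8.13 and 8.32 with the miR-16 sponge against 8.35, 8.33 and 8.26, and the groups overlapped (0.05, adjusted p = 0.861).

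Assembly of the core depends on chaperones, of which PSMG1 and PSMG2 form 1 pair, PSMG3 and PSMG4 another, while POMP drives maturation of the beta ring. PSMG4 read 7.53, 7.32 and 7.42 with the miR-16 sponge in MMS1, against 8.13, 8.03 and 8.17 with the control sponge. This fall of 0.68 ± 0.11 on the log2 scale (adjusted p = 0.00102) was seen without overlap, and 1 of 4 further probe sets, at -0.57, was also called. The others reached 0.18, and averaged over all 5 probe sets the difference was -0.31 (adjusted p = 0.143). Its partner PSMG3 differed the other way, by 0.32, and missed the threshold (adjusted p = 0.0567). POMP read 11.91, 11.74 and 11.70 against 11.85, 11.88 and 11.94, overlapping (-0.10, adjusted p = 0.592). NFE2L1 itself read 8.95, 8.71 and 8.66 with the miR-16 sponge and 8.74, 8.61 and 8.71 with the control sponge, also overlapping (0.09, adjusted p = 0.676).

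**Figure D1:**
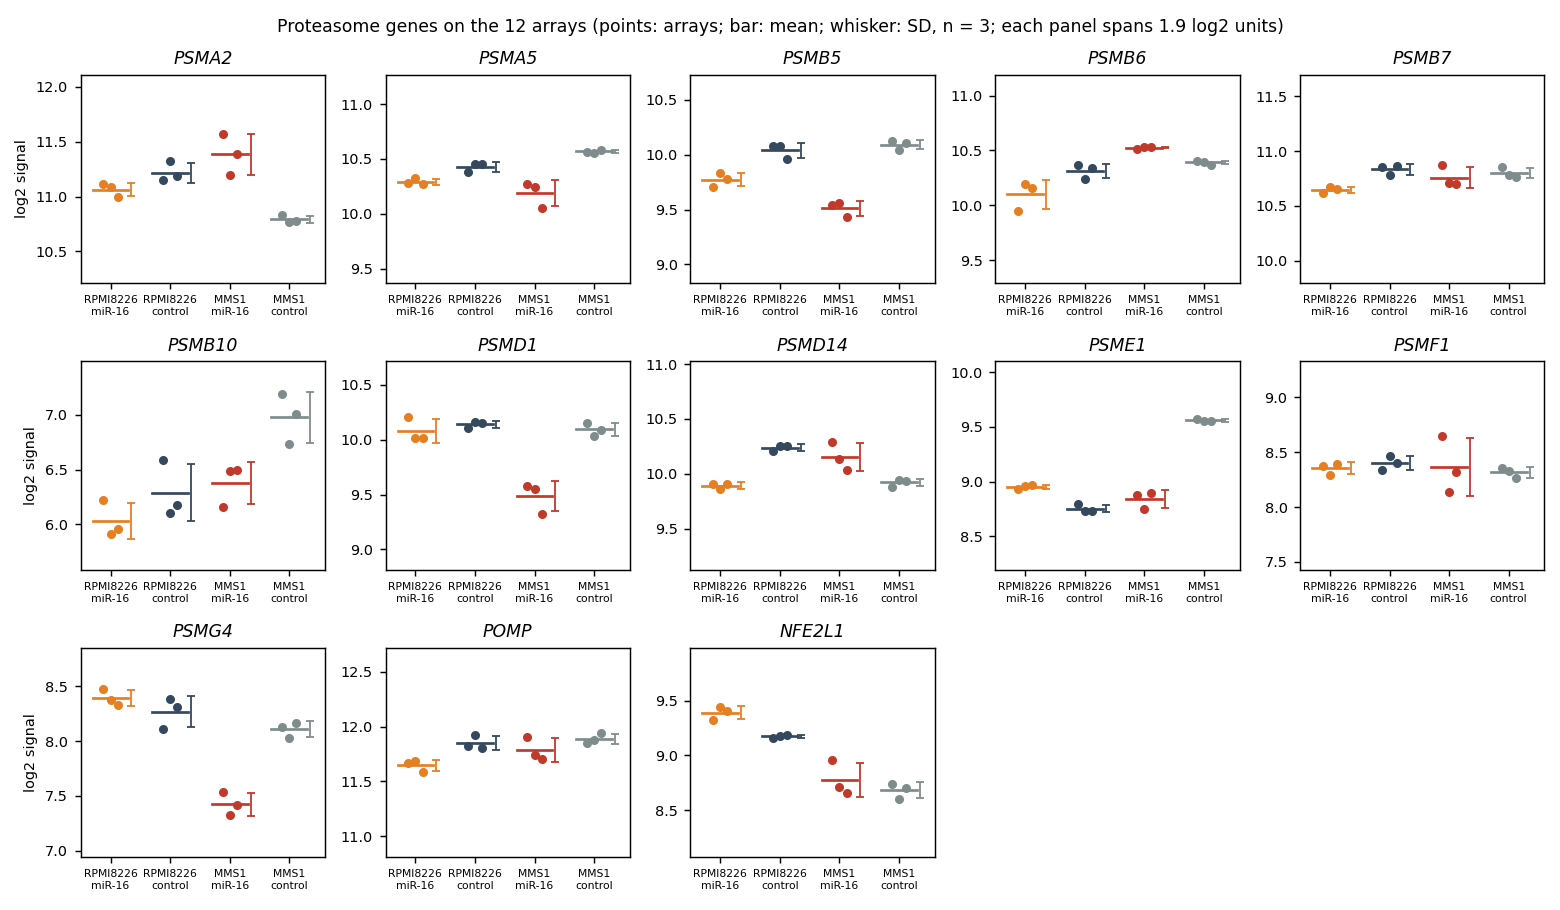
Log2 signal (vertical axis) of 13 proteasome genes on the 12 arrays, 1 panel a gene, with the miR-16 sponge left of the control sponge in each line; points are arrays, bars means of 3 and whiskers SD, and every panel spans 1.9 log2 units. PSMA5, PSMB5, PSMB10, PSMD1, PSME1 and PSMG4 lie wholly below their controls in MMS1 and PSMA2 wholly above, while PSME1 and NFE2L1 lie above and most other genes below in RPMI8226.

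Promoters were searched because PSMB10 and PSME1 are known interferon targets and proteasome genes are known NRF1 targets. RefSeq promoter sequence (GRCh38.p14, the 250 bases before the annotated start) was on hand for 42 of the 49 genes and 36 of the 42 that encode proteasome parts or regulators. The antioxidant response element (ARE) bound by NRF1, written TGACNNNGC, occurred on either strand in 9 of 36 (25.0%), against 11% of 27305 promoters. The interferon-stimulated response element (ISRE), a TTTC followed after any 2 bases by another TTTC, occurred in 4 of 36 (11.1%) against 3.07%. The interferon gamma element (GAS), written TTCNNNGAA, occurred in 5 of 36 (13.9%) against 6.78%. The CCAAT box occurred in 15 of 36 (41.7%) against 33%. A match is a description of these letters and not of binding. Below are 4 of the 6 genes that fell in MMS1. Each is given as the strand that is transcribed from left to right, with any ARE or ISRE match in capitals. The windows of the others that fell, PSMA5 and PSMD1, are not printed and hold none of the ARE, ISRE or GAS letters.
PSME1: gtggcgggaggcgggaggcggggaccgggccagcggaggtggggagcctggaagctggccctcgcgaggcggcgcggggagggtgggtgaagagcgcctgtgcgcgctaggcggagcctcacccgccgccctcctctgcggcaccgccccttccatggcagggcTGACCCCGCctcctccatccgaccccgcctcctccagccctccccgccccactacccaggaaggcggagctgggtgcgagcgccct
PSMB10: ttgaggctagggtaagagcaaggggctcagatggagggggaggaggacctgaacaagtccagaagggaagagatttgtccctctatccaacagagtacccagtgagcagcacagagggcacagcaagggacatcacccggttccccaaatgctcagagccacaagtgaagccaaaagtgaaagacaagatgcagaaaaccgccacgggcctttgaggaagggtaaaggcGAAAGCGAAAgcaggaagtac
PSMG4: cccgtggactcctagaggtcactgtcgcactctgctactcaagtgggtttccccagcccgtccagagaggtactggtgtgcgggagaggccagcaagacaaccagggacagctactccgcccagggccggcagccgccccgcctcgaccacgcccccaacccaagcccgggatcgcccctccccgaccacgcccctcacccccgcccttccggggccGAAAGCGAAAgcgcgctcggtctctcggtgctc
PSMB5: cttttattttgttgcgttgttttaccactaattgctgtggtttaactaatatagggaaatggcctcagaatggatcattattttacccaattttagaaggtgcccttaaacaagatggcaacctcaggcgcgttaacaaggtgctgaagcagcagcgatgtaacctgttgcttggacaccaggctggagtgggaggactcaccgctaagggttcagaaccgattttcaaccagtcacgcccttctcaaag
The PSME1 window (chr14:24135944-24136193, plus strand) holds an ARE match from 86 to 78 bases before the start. PSMB10 (chr16:67936851-67937100, minus strand) and PSMG4 (chr6:3258697-3258946, plus strand) hold the same 10 letters, an ISRE match on the opposite strand, at 21 to 12 and at 33 to 24 bases before the start. None of these matches overlaps another motif searched. The PSMB5 window (chr14:23035221-23035470, minus strand) holds none of the ARE, ISRE or GAS letters, and a CCAAT at 164 to 160 bases before the start. The other ISRE matches were in PSMB4 and PSMA4, which were not called in MMS1 (-0.13 and -0.15). The other ARE matches were in PSMB3, PSMD3, PSMD5, PSMD9, PSMD12, PSME4, PSMG1 and PSMG2, and none of them was called there. GAS matches were in PSMA2, which rose in MMS1, and in PSMD3, PSME3, PSMA8 and PSMC4, which were not called there.

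In RPMI8226, none of the 49 genes passed the test, where 0.196% of all probe sets, 0.217% of all genes and 0.319% of the brighter genes did. At an unadjusted p under 0.05 there were 13 of 49 genes (26.5%), 12 of them lower with the miR-16 sponge, against 13.7% of all probe sets and 17.9% of the brighter genes. The changes were small and mostly of 1 sign: 41 of 49 (83.7%) were negative, with a median of -0.16 and a range of -0.41 to 0.22. Over the brighter genes 58.3% were negative, with a median of -0.04. Among the 28 genes of the 20S rings and the 19S cap, 25 were negative. The 3 miR-16 sponge arrays lay wholly below the 3 controls for 26 genes (53.1%), a pattern shown by 24.5% of the brighter genes, and wholly above for 3 genes (6.12%, against 8.48%). In MMS1 they lay wholly below for 14 genes (28.6%, against 24.5% of the brighter genes) and wholly above for 7 (14.3%, against 15.2%).

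The lowest adjusted p in RPMI8226 belonged to PSME4, which encodes PA200. It read 8.72, 8.74 and 8.82 with the miR-16 sponge, against 9.17, 9.12 and 9.18 with the control sponge, without overlap (-0.39 ± 0.10, adjusted p = 0.113). The alpha subunit PSMA3 read 9.68, 9.75 and 9.73 against 10.09, 10.11 and 10.17 (-0.41 ± 0.11, adjusted p = 0.143). PSMD14 read 9.91, 9.86 and 9.91 against 10.20, 10.25 and 10.26 (-0.35 ± 0.09, adjusted p = 0.142). The ATPase PSMC3 read 9.28, 9.26 and 9.39 against 9.69, 9.63 and 9.63 (-0.34 ± 0.10, adjusted p = 0.16). Each of these 4 genes lay apart between the groups, and all were called when the test was limited to probe sets with a mean of at least 6. That setting called 1489 of 24705 probe sets in RPMI8226, where the main fit called 107 of 54613. Leaving out replicate 1 of MMS1 with the miR-16 sponge, which enters only the common estimate of spread, brought 2 genes past the threshold, PSMA3 and PSME4. Without that array the calls in RPMI8226 over all 54613 probe sets also rose, from 107 to 723.

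In RPMI8226 none of the catalytic subunits passed, nor did PSMA5, PSMB10 and PSMD1, which had fallen in MMS1. PSMB5 lay at 9.71, 9.83 and 9.78 with the miR-16 sponge against 10.08, 10.08 and 9.96 with the control sponge, below without overlap but short of the threshold (-0.27, adjusted p = 0.223). PSMB6 (9.95, 10.19 and 10.16 against 10.36, 10.24 and 10.34) and PSMB7 (10.62, 10.67 and 10.65 against 10.85, 10.78 and 10.87) were also wholly below, by 0.21 and 0.19, without passing (adjusted p = 0.352 and 0.4). That pattern was shown by 24.5% of the brighter genes. PSMA5 read 10.28, 10.32 and 10.27 against 10.38, 10.46 and 10.45 (-0.14, adjusted p = 0.557), and PSMB10 read 6.22, 5.92 and 5.96 against 6.59, 6.11 and 6.18 (-0.26, adjusted p = 0.521), of which only PSMB10 overlapped. PSMD1 overlapped as well, at 10.20, 10.01 and 10.02 against 10.10, 10.17 and 10.15 (-0.06, adjusted p = 0.842).

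Of the regulators in RPMI8226, POMP read 11.67, 11.69 and 11.59 with the miR-16 sponge against 11.83, 11.92 and 11.80 (-0.20, adjusted p = 0.378), wholly below. NFE2L1 read 9.32, 9.44 and 9.40 against 9.16, 9.18 and 9.18, wholly above (0.22, adjusted p = 0.378), and was 1 of 3 genes to lie above. PSMF1 overlapped, at 8.38, 8.30 and 8.40 against 8.34, 8.47 and 8.40 (-0.05, adjusted p = 0.911).

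**Figure D2:**
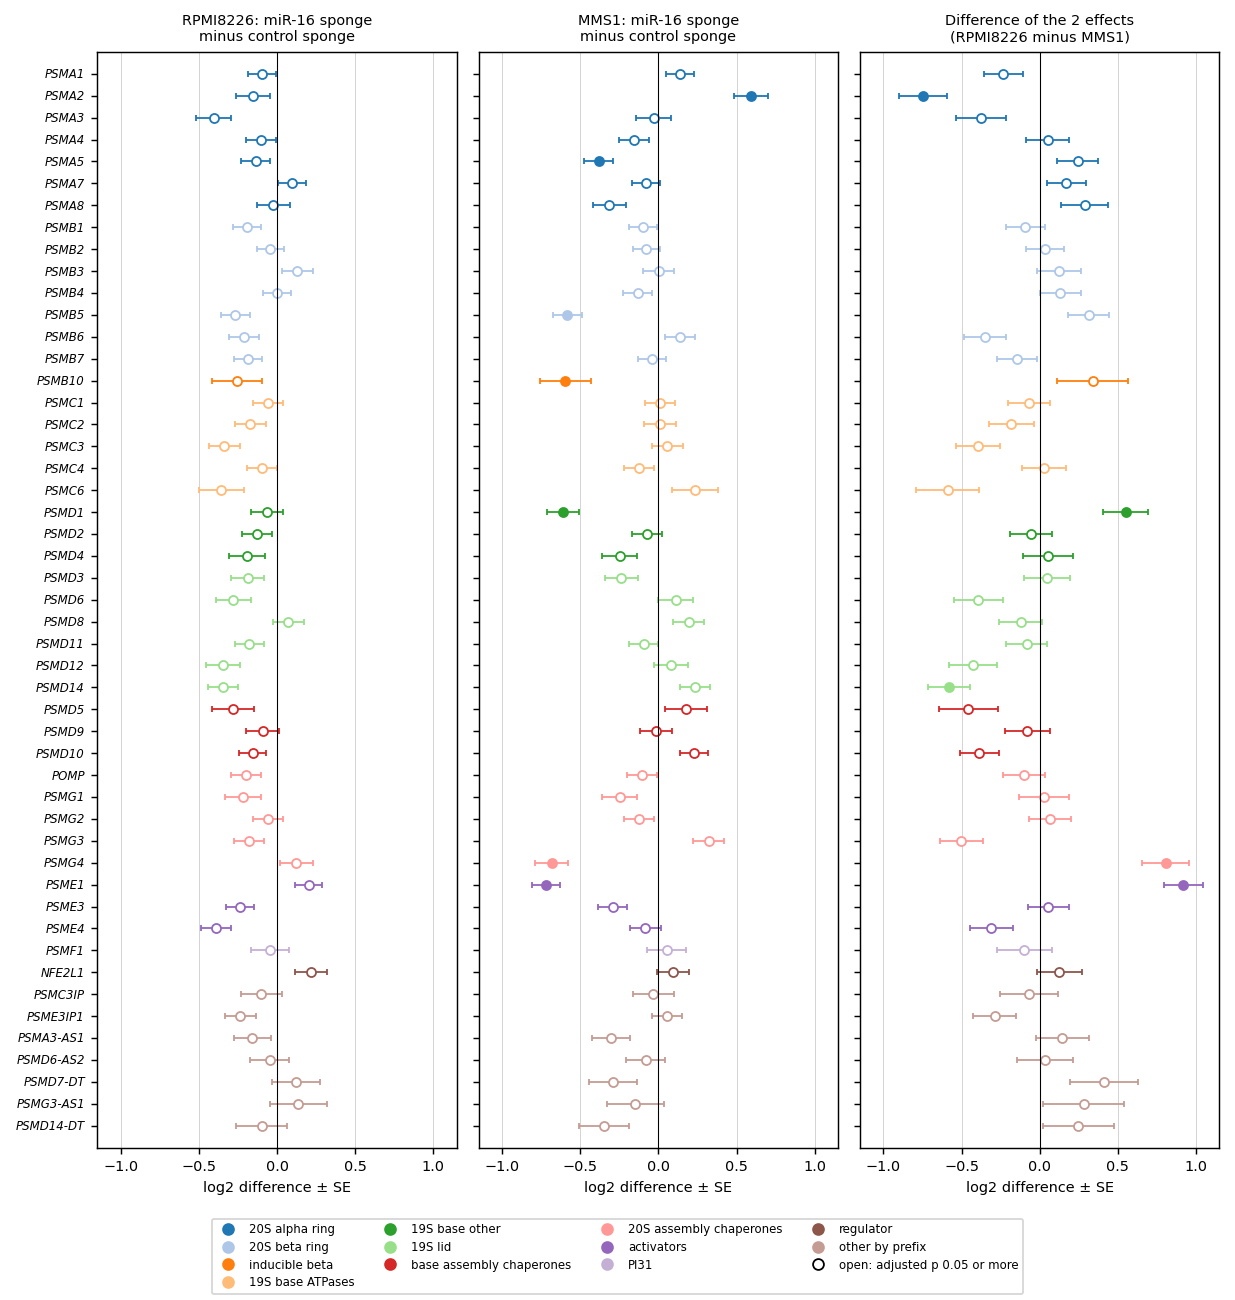
Log2 difference ± SE (horizontal axis) of each of the 49 genes, grouped by subcomplex, for the miR-16 sponge minus the control sponge in RPMI8226 and in MMS1 and for the difference of those effects; filled points have an adjusted p under 0.05. RPMI8226 has no filled point and 41 of 49 points left of 0, MMS1 has 7 filled points, and the difference 5.

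The sponge effects differed between the lines for 5 of the 49 genes (10.2%), where the same test called 5.1% of all probe sets and 8.48% of the brighter genes. The effect was higher in RPMI8226 for 3 of them and lower for 2. Those directions were taken by 2.63% and 3.27% of all genes and by 3.75% and 4.73% of the brighter genes. For PSME1 the effect in RPMI8226 minus that in MMS1 was 0.92 ± 0.13 (adjusted p = 0.000817). Its RPMI8226 signals were 8.93, 8.96 and 8.97 with the miR-16 sponge against 8.79, 8.73 and 8.73, above the controls where MMS1 lay below. PSMG4 also differed, by 0.81 ± 0.15 (adjusted p = 0.00738). In RPMI8226 it overlapped between the groups, at 8.47, 8.38 and 8.32 against 8.11, 8.38 and 8.31. PSMA2 differed by -0.75 ± 0.15 (adjusted p = 0.0137), and in RPMI8226 it lay below its controls, at 11.11, 11.08 and 10.99 against 11.15, 11.32 and 11.19.

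The remaining differences were less secure. That of PSMD14, -0.58 (adjusted p = 0.0249), was lost on leaving out any of 6 arrays: RPMI8226 miR-16 sponge replicate 2, RPMI8226 control replicates 2 and 3, and all MMS1 controls (0.0522 to 0.0669). That of PSMD1, 0.55 (adjusted p = 0.0468), was lost without any of 11 arrays, all but MMS1 miR-16 sponge replicate 1 (0.0613 to 0.113). The count fell to 3 on leaving out any of the 6 arrays named for PSMD14. That of PSMG4 became 0.51 (adjusted p = 0.122) when all its probe sets were averaged, and the second PSMA2 probe set gave -0.43 (0.216). PSMB5, which passed only in MMS1, was not shown to differ between the lines (0.31, adjusted p = 0.212).

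Averaged over both lines, 7 genes fell and none rose. They are 14.3% of the 49, against 7.19% of all probe sets and 12.6% of the brighter genes called. Of all genes 6.6% fell, and of the brighter genes 9.73%. PSMB5 (-0.43 ± 0.07, adjusted p = 0.00165) and PSMD1 (-0.34 ± 0.07, adjusted p = 0.0135) were called whichever array was left out. PSMA5 (-0.26, adjusted p = 0.0311), PSMB10 (-0.43, 0.0403), PSME1 (-0.26, 0.0242), PSME3 (-0.27, 0.0257) and PSMG4 (-0.28, 0.0401) each lost the call without any of 8 to 10 arrays. Averaged over all probe sets of a gene, PSMA5 (-0.03, adjusted p = 0.927), PSME3 (-0.15, 0.233) and PSMG4 (-0.05, 0.794) were not called. PSME3 read 8.52, 8.46 and 8.48 with the miR-16 sponge in RPMI8226 against 8.77, 8.72 and 8.69, and 8.27, 8.25 and 8.15 in MMS1 against 8.61, 8.44 and 8.50. It was thus lower on every sponge array of both lines. The mean effect of PSMD1, PSME1 and PSMG4 is taken over lines whose effects differed, as given above. For PSMD1 the effect was -0.61 in MMS1 and -0.06 in RPMI8226, where it was not called. The number called was 2 to 4 without any of 10 arrays, that is, all but MMS1 miR-16 sponge replicate 1 and MMS1 control replicate 2.

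By subcomplex, each array's median deviation from the genes' own means over 12 arrays showed the same arrangement. Over the 42 encoding genes these medians were -0.09, -0.08 and -0.10 on the miR-16 sponge arrays of RPMI8226, against 0.05, 0.09 and 0.11 on its control arrays. In MMS1 they were 0.04, -0.05 and -0.07 against 0.06, 0.01 and 0.02. The array of MMS1 with the low 18S signal had the highest median of its group over these 42 genes. That also held for the alpha ring, the ATPases, the lid, the base chaperones, the core's assembly chaperones and the activators. It did not hold for the beta ring or the non-ATPase base subunits. For the 3 non-ATPase base subunits PSMD1, PSMD2 and PSMD4 the MMS1 miR-16 sponge arrays stood at -0.34, -0.26 and -0.55, against 0.04, -0.08 and -0.02 on the control arrays. On every miR-16 sponge array of MMS1 this median came from PSMD4, and on every MMS1 control array from PSMD2. The values therefore set different genes against each other. The deviations also hold any difference between the lines, and on the control arrays PSMD4 was higher in RPMI8226 than in MMS1 by 0.49. Taken gene by gene, the median change of the 3 in MMS1 was -0.25, and only PSMD1 was called.

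**Figure D3:**
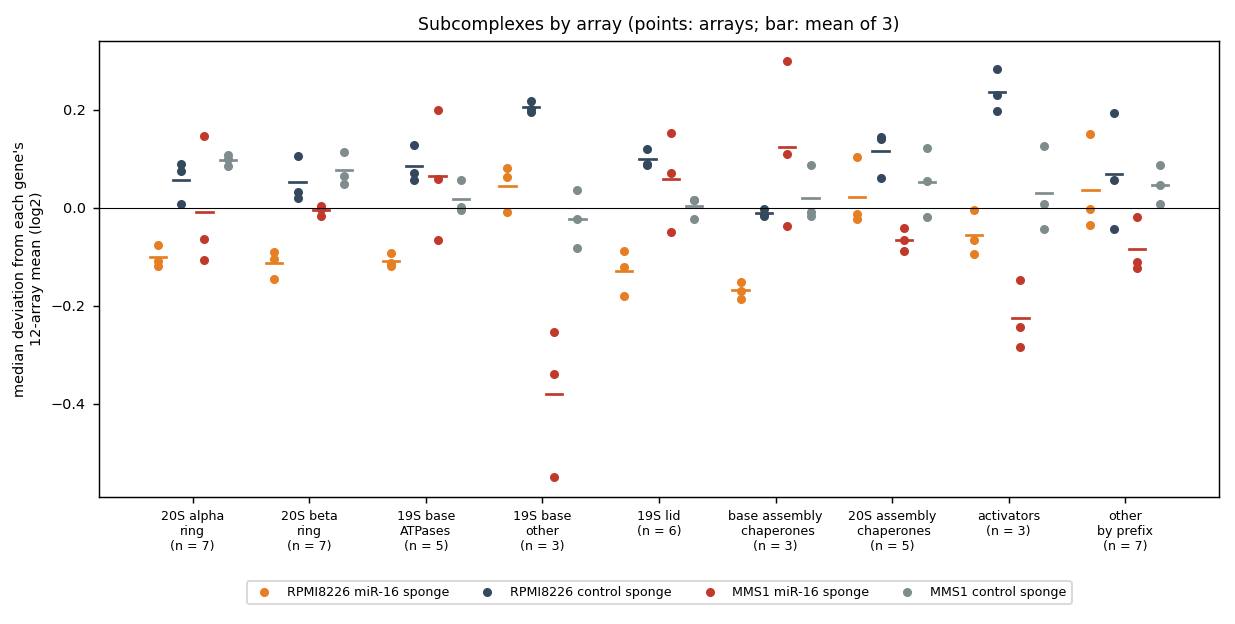
Median, over the genes of each subcomplex, of the deviation from each gene's mean over 12 arrays (vertical axis, log2); points are arrays and bars means of 3, with PSMB10, PSMF1 and NFE2L1 left out as single genes. In RPMI8226 the miR-16 sponge arrays lie below the control arrays for both rings, all parts of the 19S cap, the base chaperones and the activators. The lowest of all points, at -0.55, belongs to the non-ATPase base subunits in MMS1 with the miR-16 sponge. It is a median of 3 genes, which came from PSMD4 on these arrays and from PSMD2 on the MMS1 control arrays.

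The control-sponge arrays show how the lines themselves differed. Of the 49 genes 11 (22.4%) differed, 7 higher and 4 lower in RPMI8226 than in MMS1, where 8.18% of all probe sets and 14.6% of the brighter genes were called. Of all genes 6.52% were higher and 3.8% lower, and of the brighter genes 9.11% and 5.52%. PSME1 differed most, with 8.79, 8.73 and 8.73 in RPMI8226 against 9.58, 9.56 and 9.55 in MMS1 (-0.81 ± 0.09, adjusted p = 7.07e-05). PSMB10 was also lower, at 6.59, 6.11 and 6.18 against 7.19, 6.73 and 7.01 (-0.69 ± 0.16, adjusted p = 0.0185). It lost the call without RPMI8226 control replicate 2 or 3 or MMS1 control replicate 1 or 3 (0.0604 to 0.0909). Each gene that the line comparison shares with the sponge comparison in MMS1 is set against the same MMS1 control arrays, so the values are not independent.

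Higher in RPMI8226 were the chaperones PSMG1, at 9.61, 9.72 and 9.69 against 9.06, 8.98 and 9.12 in MMS1 (0.62 ± 0.11, adjusted p = 0.00368), and PSMG3, at 8.92, 8.74 and 8.73 against 8.35, 8.26 and 8.35 (0.47 ± 0.10, adjusted p = 0.00865). NFE2L1 was higher too, at 9.16, 9.18 and 9.18 against 8.74, 8.61 and 8.71 (0.49 ± 0.10, adjusted p = 0.00909), and its other probe sets, at 0.49 and 0.52, were also called. PSME1, PSMG1, PSMG3 and NFE2L1 kept their calls whichever array was left out. The other genes called were PSMA2 (0.43), PSMB4 (0.40), the ubiquitin receptor PSMD4 (0.49) and PSME4 (0.44), all higher in RPMI8226, and PSMB2 (-0.34) and PSME3IP1 (-0.35), lower. These 6 calls were each lost without at least 3 of the 12 arrays, and the count fell to between 4 and 7 without any of 5 control arrays, all but RPMI8226 replicate 1. Averaged over a gene's probe sets, PSMB2 (-0.11, adjusted p = 0.539), PSMA2 (0.28, 0.107), PSME4 (0.28, 0.124) and PSME3IP1 (-0.31, 0.0573) were not called, nor were the gene-specific probe sets of PSMB2 (-0.07, 0.86), PSMA2 (0.13, 0.672) and PSMD4 (0.19, 0.588). Of the 3 further PSMD4 probe sets, however, 2 were called, also higher in RPMI8226. The catalytic subunits differed by -0.08 to 0.03 and none was called.

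**Figure D4:**
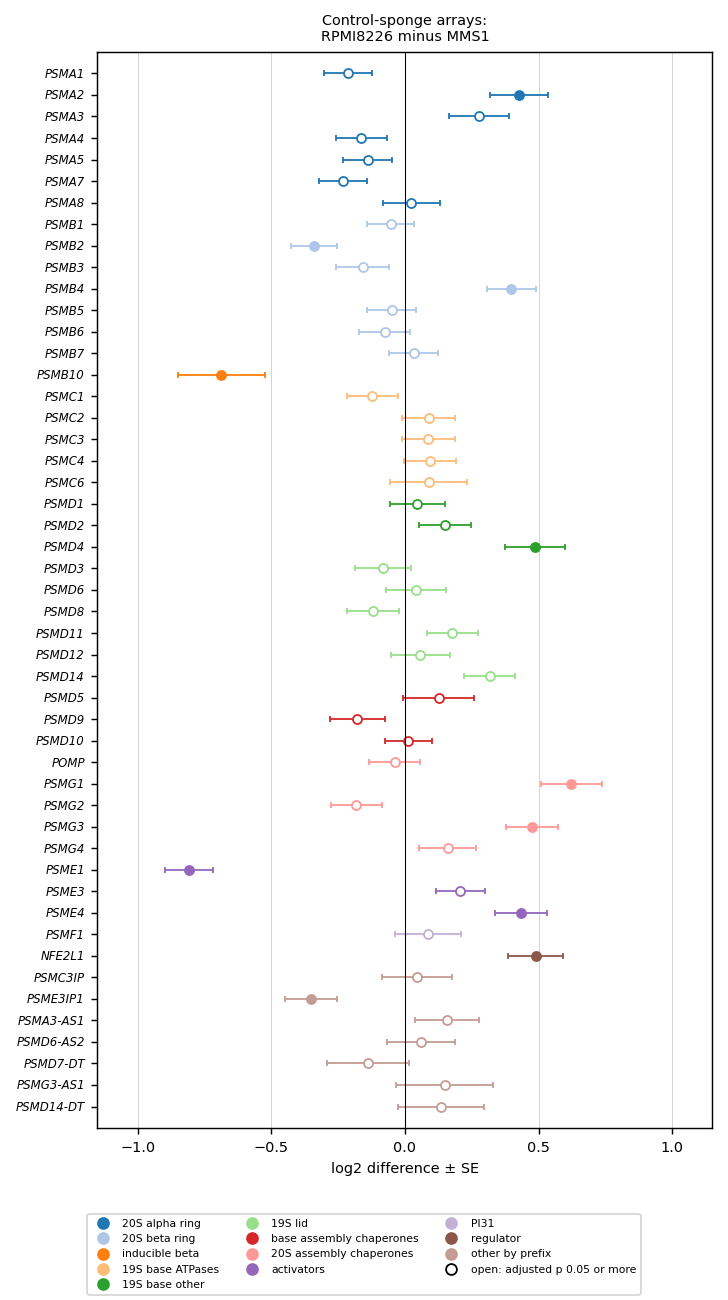
Log2 difference ± SE (horizontal axis) of the 49 genes between control-sponge arrays, RPMI8226 minus MMS1, by subcomplex; filled points have an adjusted p under 0.05. Of the 11 filled points, PSME1 and PSMB10 lie farthest left and PSMG1 farthest right.

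Other genes of the pathway were read from 3 lists. Of 12 proteasome-associated factors, 3 rose (25.0%, against 4.34% of all genes and 5.96% of the brighter genes) and none fell in MMS1. None was called in RPMI8226, where 0.217% of all genes were. The median difference was -0.11 in RPMI8226 and 0.12 in MMS1. ZFAND5, which activates the 26S proteasome, read 9.71, 9.66 and 9.54 with the miR-16 sponge in MMS1 against 8.63, 8.50 and 8.66 with the control sponge (1.04 ± 0.10, adjusted p = 1.27e-05). In RPMI8226 it read 8.57, 8.66 and 8.57 against 8.98, 9.10 and 9.05 (-0.44, adjusted p = 0.0816), and the effects differed by -1.49 (2.96e-05). Another ZFAND5 probe set, whose ID marks it as specific to the gene, gave 0.22 in MMS1 (adjusted p = 0.399) and a difference of -0.05 (0.924). ZFAND2A, an arsenite-inducible proteasome adapter, rose by 0.49 (adjusted p = 0.0189) and TXNL1, a thioredoxin-like protein bound to the 19S cap, by 0.38 (0.0224) in MMS1, and both calls were lost without any of 3 arrays. These were MMS1 control replicates 1 and 2 with miR-16 sponge replicate 2 for ZFAND2A and with replicate 1 for TXNL1. The mean over the probe sets of TXNL1 was 0.41 and missed the threshold (adjusted p = 0.0545). ECPAS, a proteasome scaffold, differed by 0.68 in MMS1 (adjusted p = 0.0978). The deubiquitinase UCHL5 differed by -0.34 in RPMI8226 and 0.13 in MMS1 (adjusted p = 0.216 and 0.561).

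A further list held NRF1's processing factors, partners and relatives with the NRF2 regulator KEAP1. Of its 10 genes measured, 3 fell in MMS1 (30.0%, against 8.08% of all genes and 11.6% of the brighter genes) and none rose (median -0.10). None was called in RPMI8226 (median -0.19). KEAP1, the ubiquitin ligase adapter that holds down the NRF1 relative NRF2, read 6.98, 6.98 and 6.88 with the miR-16 sponge in MMS1 against 7.88, 7.80 and 7.77 (-0.87 ± 0.09, adjusted p = 4.32e-05). In RPMI8226 it was also wholly below, at 7.36, 7.40 and 7.30 against 7.72, 7.71 and 7.84 (-0.41, adjusted p = 0.0916). NGLY1, which removes sugars from NRF1, fell by 0.63 on the log2 scale in MMS1 (adjusted p = 0.00122) and differed by -0.36 in RPMI8226 (0.146). BTRC, a ligase subunit that marks NRF1 for degradation, read 6.96, 7.04 and 6.78 in MMS1 against 7.83, 7.70 and 7.82 (-0.85, adjusted p = 0.000431). Its effect in RPMI8226, 0.25, differed from that in MMS1 by 1.11 (adjusted p = 0.00191). Gene-specific probe sets of NGLY1 (-0.34, adjusted p = 0.0954) and BTRC (-0.49, 0.103) had the same sign in MMS1 without passing, and that of BTRC gave a difference between lines of 0.71 (0.127). VCP, the ATPase that extracts NRF1 from the endoplasmic reticulum, differed by -0.39 in RPMI8226 and -0.05 in MMS1 (adjusted p = 0.176 and 0.871), and MAFF, a DNA-binding partner, by -0.45 and -0.04 (0.2 and 0.923).

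Of 13 genes measured for ubiquitin and substrate delivery, 2 fell (15.4%, against 8.08% of all genes and 11.6% of the brighter genes) and none rose in MMS1 (median -0.05), and none was called in RPMI8226 (median -0.01). UFD1, a cofactor of VCP, read 10.54, 10.50 and 10.45 with the miR-16 sponge in MMS1 against 10.96, 10.87 and 10.97 (-0.43 ± 0.09, adjusted p = 0.00568). Its partner NPLOC4 differed by -0.24 (adjusted p = 0.176) and the VCP adapter FAF2 by -0.43 (0.0764). UBQLN4, a shuttle for ubiquitinated proteins, differed by 0.29 in RPMI8226 and 0.05 in MMS1 (adjusted p = 0.296 and 0.851). SQSTM1, the autophagy receptor p62, was called lower in MMS1 (-0.32, adjusted p = 0.0451) on its brightest probe set and higher (0.73, 0.00142) on another, so its direction depends on the probe set. Leaving out any of 11 arrays, that is, each except MMS1 miR-16 sponge replicate 1, ended the first call (0.0533 to 0.155).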

How the data were processed

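The authors deposited log2 signals, 1 per probe set and array, with a lower bound of 4. Their probe summarization and scaling are not given in the sources used here. With array medians of 5.80 to 5.90, the values were used as they are. Of 54675 probe sets, 62 controls were left out. The platform annotation gave 41091 of the others 1 gene, 1801 several and 11721 none. Symbols were updated by identifier through RefSeq (GRCh38.p14), which matched all 49 genes.

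Arrays were grouped by their labels. In limma 3.58.1 (R 4.3.3), 1 linear model estimated the 4 group means from the 12 arrays together, with 8 residual and 4.92 prior degrees of freedom. P-values are two-sided with Benjamini-Hochberg adjustment over 54613 probe sets. The fit was tested on simulated data. Each gene was read from its brightest single-gene probe set. The genes, gene lists and tests were chosen with earlier results of these data known. Values on all arrays are given for proteasome genes called in a sponge comparison or in their difference and for PSMB5, PSMB6, PSMB7, PSMB10, POMP, PSME1, PSMF1 and NFE2L1, and up to 5 genes per further list are named by smallest p. PSME3, PSME4, PSMA3, PSMC3, PSMG1 and PSMG3 were given on all arrays after their values were seen. Alternatives were normalization, a minimum mean of 6, the choice of probe set, the arrays fitted, a variance trend, the replicate block and leaving out each array. Python 3.11.15 served for summaries and plots.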

Additional observations from a re-analysis of the deposited data

Results flagged for a closer look

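Sponge effects differed between the lines, by a test of the difference itself, for 8 of the named genes. Each value is the effect in RPMI8226 minus the effect in MMS1 on the log2 scale. Among the proteasome genes the values were 0.920 for PSME1, 0.807 for PSMG4, 0.550 for PSMD1, -0.579 for PSMD14 and -0.748 for PSMA2. Among the associated factors they were -1.485 for ZFAND5 and -0.566 for TXNL1, and for the ligase subunit BTRC the value was 1.106. The difference for TXNL1 (adjusted p = 0.0299) was lost on leaving out any of 8 arrays and with the mean over its probe sets (-0.49, 0.143). On gene-specific probe sets the differences of BTRC (0.71, adjusted p = 0.127) and ZFAND5 (-0.05, 0.924) were not called. No group was large enough to look for single outlying arrays.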

How the results depend on the processing

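Counts of proteasome genes called moved under several settings. In MMS1 the 7 became 11 when probe sets with a mean of at least 6 were tested and 11 with a variance trend. In RPMI8226 the 0 became 4 and 6. Calls over all probe sets moved as well under these settings. In MMS1 the 5635 of 54613 became 6443 of 24705 and 7154 of 54613. In RPMI8226 the 107 of 54613 became 1489 of 24705 and 1697 of 54613. For the average over both lines the 7 became 14 and 15 under the same settings, 4 after quantile normalization and 4 with the mean over a gene's probe sets. Over all probe sets the 3929 of 54613 became 5433 of 24705, 5787 of 54613, 4251 of 54613 and 2307 of 33297. For the difference between lines the 5 became 10 and 12, where 2786 of 54613 probe sets became 4280 of 24705 and 4577 of 54613. Leaving out 1 array at a time gave 5 to 9 in MMS1, 0 to 2 in RPMI8226, 2 to 10 for the average, 3 to 6 for the difference and 4 to 12 between control arrays. Of all 54613 probe sets these runs called 3730 to 5570, 22 to 723, 2574 to 5159, 1845 to 2797 and 2747 to 5379. The replicate block gave 7, 0, 5, 3 and 8 for the same comparisons, and 4908, 32, 3191, 2145 and 3767 over all probe sets. Pairing of arrays by replicate number was not seen, though it is not excluded: 0 of 18 same-numbered pairs correlated above 0.1 (r from -0.075 to 0.058). SQSTM1 changed sign: 0.068 in MMS1, 0.080 for the average with the mean over its probe sets, and 0.732, 0.309 and, for the difference, -0.846 with a gene-specific probe set. The cause was not tested. For no other named gene did a difference called in the main fit or in the alternative change sign. Sign changes of differences called in neither were not counted. The alternatives did not include the second PSMA5 probe set on its own, which had the opposite sign in MMS1. With 3 arrays a group, and PSMB10 about 2 log2 units above the lower bound of 4, small changes were not detectable.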
